A study of Mus musculus and Homo sapiens with 24 samples.

Results

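The genes described here are 60 genes of the human cell cycle in HepG2 cells, a hepatoma line with hepatocyte-like expression. They were chosen by symbol, from a list of cyclins, cyclin-dependent kinases (CDKs), CDK inhibitors, transcription factors, replication genes and mitotic genes. This choice was made with earlier results of these data known. All 60 were found among the 28278 genes of the HepG2 count table, of which 21244 had a count in at least 1 library. Control cells (n = 3 libraries) had neither agent. The other cells had 50 μM CoCl2, a chemical that stabilizes HIF1α and so imitates low oxygen (n = 3), 25 nM β-estradiol, named estrogen here (n = 3), or CoCl2+estrogen at the same doses (n = 3), and treatment lasted 4 h. All 12 libraries came from 1 unmodified cell line. The labels name no vehicle for the control cells and do not say whether the 3 lettered replicates of a group were separate cultures, so p-values measure only the spread between these libraries. The labels describe overnight culture in medium with serum, whereas the culture methods of the study also include an overnight step without serum, and which of these applied to the libraries is not stated.

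A cell that divides passes from G1 into S phase when D-type and E-type cyclins, bound to their CDKs, phosphorylate the retinoblastoma protein and so release E2F transcription factors, which switch on the genes of origin licensing, nucleotide supply and DNA synthesis. A later wave of genes, held back by the DREAM complex and activated by MYBL2 and FOXM1, supplies the A-type and B-type cyclins, the mitotic kinases and the spindle checkpoint. CDK inhibitors such as p27 (CDKN1B) hold the early steps back, and the ubiquitin ligase subunit SKP2 marks p27 for degradation. HepG2 cells proliferate in culture, unlike most hepatocytes of the adult liver.

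Library totals ran from 13592637 to 21701480 counts, the lowest count of any of the 60 genes in a library was 29 (CCND2), and all 60 passed the filter on low counts in every comparison. The 10 hepatocyte-like markers, among them ALB and APOB, were above 1 CPM in every group. Their summed level was 28324 to 30853 CPM in control, 30781 to 32501 in CoCl2, 15824 to 17154 in estrogen and 17175 to 18008 in CoCl2+estrogen libraries, so it was lower wherever estrogen was present. The defining fibroblast genes COL1A2, COL3A1 and DCN and the leukocyte genes PTPRC and CD3E had no count in any group. Of the other 3 fibroblast genes COL1A1 averaged 20.8 CPM in control, 17.8 in CoCl2, 1.15 in estrogen and 1.07 in CoCl2+estrogen libraries, and LUM and PDGFRA were at 0.0498 CPM or less. Among the immune genes with counts CD68 averaged 29.1, 32.3, 15.1 and 15.8 CPM and LYZ 1161, 1149.9, 873 and 936 CPM in the same order, and CD14 stayed under 1 CPM. The summed level of the 6 fibroblast genes was 19.5 to 22.9 CPM in control and 1.07 to 1.46 CPM in estrogen libraries, and that of the 6 immune genes was 1109.5 to 1255 and 839 to 952 CPM, so these levels too were lower with estrogen. The 5 endothelial genes summed to between 0.808 and 3.22 CPM over all libraries, and PECAM1 averaged 0.733 CPM in control and 1.79 in estrogen libraries. The part of these shifts in the results was not tested. CoCl2 replicate B stood apart: a chi-square per degree of freedom of its counts was 61.4 against replicate A and 42.9 against replicate C, whereas the other pairs within groups lay between 6.16 and 16. For the 60 genes, counts of genes called in the comparisons that use it, and the genes whose call depends on it, are given with and without it. Results of further cell cycle genes are given only with it.

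In total RNA from whole cultures, fewer cells in a phase and less transcript per cell cannot be told apart. Levels below are CPM, counts relative to the library total after scaling by the trimmed mean of M values (TMM). They are compared within a gene only, since no transcript lengths were used. A gene is called changed when its adjusted p is at most 0.05 in the quasi-likelihood test of edgeR, adjusted by the Benjamini-Hochberg method over all tested genes.

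**Figure D1:**
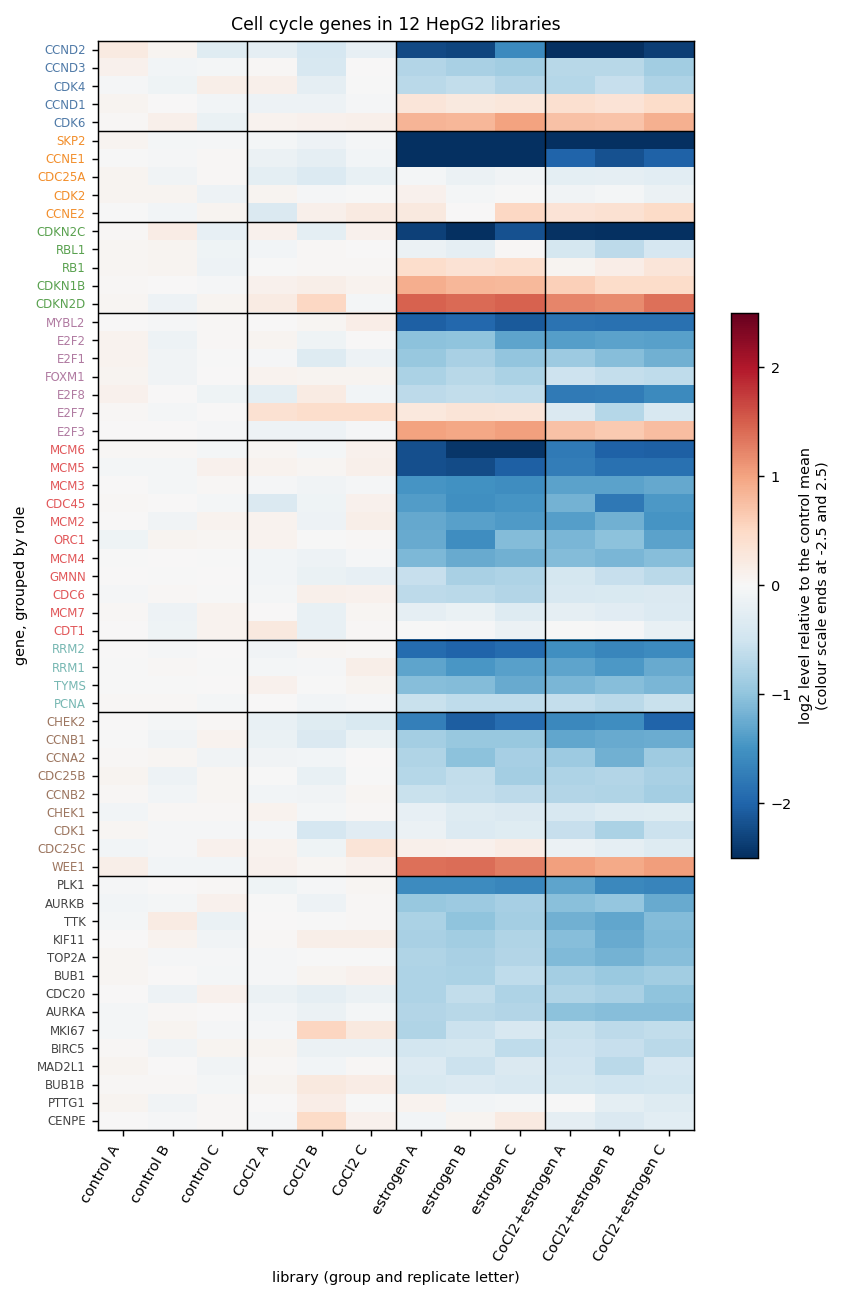
Each row is 1 of the 60 genes and each column 1 of the 12 libraries, and colour gives the log2 level relative to the mean of the 3 control libraries (red higher, blue lower). From top to bottom the blocks hold G1 cyclins and kinases, G1/S drivers, CDK inhibitors and pocket proteins, transcription factors, origin licensing and firing, nucleotide supply and DNA synthesis, S/G2 and checkpoint genes, and mitotic genes. The 6 libraries with estrogen are mostly blue, and the 3 CoCl2 libraries stay close to the control libraries.

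The first question was how the cell cycle genes differed between estrogen-treated and control cells. Of the 60 genes, 52 were called, 8 higher and 44 lower, and their median log2 fold change was -0.74, against -0.004 over all tested genes. Estrogen libraries differed from control libraries in a large share of the transcriptome: 68.9% of the 16281 tested genes were called, 34.7% higher and 34.2% lower. The cell cycle genes were called in 86.7% of cases, with 73.3% lower and 13.3% higher, so the direction departs from the background more than the number of calls does. These shares depend on TMM scaling, which places the median of all genes near 0. With library totals alone the medians were -0.87 for the 60 genes and -0.13 for all tested genes. The calls of MCM7 (-0.25), CDK1 (-0.27) and CHEK1 (-0.31) were not followed singly under other scalings.

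Genes of the G1 decision moved in both directions. SKP2, the F-box protein that targets p27, was at 123, 113 and 114 CPM in the control libraries and at 10.7, 8.93 and 9.18 CPM in the estrogen libraries. Every estrogen library was far below every control library, and SKP2 fell by 3.61 on the log2 scale, the largest fall of the 60 genes (SE 0.086, edgeR adjusted p = 6.44e-14). CCNE1, cyclin E1, the partner of CDK2 at S phase entry, was at 39.8, 39.6 and 41.3 CPM in control and 6.33, 7.08 and 6.05 CPM in estrogen libraries and fell by 2.65 (SE 0.099, edgeR adjusted p = 5.13e-12). The other G1/S drivers did not follow them. CCNE2, the second E-type cyclin, had a log2 difference of 0.26 (95% interval -0.064 to 0.59), CDK2 one of -0.00017 (-0.17 to 0.17) and the phosphatase gene CDC25A one of -0.11 (-0.25 to 0.036), and none of these was called.

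Among the 5 G1 cyclins and kinases, which start the phosphorylation of the retinoblastoma protein, all were called, 3 lower and 2 higher. That is 60% and 40%, against 34.2% and 34.7% of all tested genes, a difference not tested for so few genes. CCND2, the D-type cyclin with the lowest counts of the list, was at 14.1, 12.5 and 9.75 CPM in control and 2.43, 2.36 and 3.89 CPM in estrogen libraries and fell by 2.09 (SE 0.20, edgeR adjusted p = 1.77e-07). CCND3 and CDK4 fell by 0.82 and 0.69. CCND1 and CDK6 went the other way. CDK6, which pairs with D-type cyclins, was at 805, 859 and 705 CPM in control and 1410.5, 1397 and 1581 CPM in estrogen libraries, a rise of 0.87 (SE 0.078, edgeR adjusted p = 9.02e-08). CCND1 was at 635, 611 and 584 CPM in control and 749.6, 722 and 739.8 CPM in estrogen libraries, without overlap, and rose by 0.26 (SE 0.058, edgeR adjusted p = 0.000988). With scaling to library totals alone the CCND1 difference was 0.13 and was not called (edgeR adjusted p = 0.0558).

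The CDK inhibitors and pocket proteins, which restrain S phase entry, had 3 of 5 genes higher and 1 lower. Set beside the 34.7% and 34.2% of all tested genes, these 60% and 20% were not tested either. CDKN2D, encoding p19 of the INK4 family that blocks CDK4 and CDK6, was at 2.17, 1.91 and 2.22 CPM in control and 6.05, 5.79 and 6.05 CPM in estrogen libraries, a rise of 1.49 (SE 0.18, edgeR adjusted p = 1.79e-06). CDKN1B, encoding p27, was at 73, 71.3 and 69.5 CPM in control and 134, 127 and 125 CPM in estrogen libraries and rose by 0.84 (SE 0.064, edgeR adjusted p = 1.51e-08). RB1, the retinoblastoma gene, rose by 0.39, and its relative RBL1 (p107) was not called, with a difference of -0.13 (95% interval -0.3 to 0.043). CDKN2C, encoding p18 of the same INK4 family as p19, went against the group: it was at 19.6, 21.7 and 16.6 CPM in control and 3.73, 3.22 and 4.17 CPM in estrogen libraries and fell by 2.40 (SE 0.15, edgeR adjusted p = 1.35e-09). The 2 INK4 genes of the list therefore changed in opposite directions.

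All 7 transcription factor genes were called, 5 lower and 2 higher (71.4% and 28.6%, against 34.2% and 34.7% of all tested genes). MYBL2, the B-Myb factor that activates late genes with some of the DREAM subunits, fell by 2.06 (SE 0.066, edgeR adjusted p = 9.97e-13). It was at 203, 198 and 208 CPM in control and 49.2, 51.7 and 47.1 CPM in estrogen libraries. E2F2, an activator E2F, was at 40.1, 34.7 and 38.6 CPM in control and 18.4, 18.7 and 15 CPM in estrogen libraries and fell by 1.14 (SE 0.099, edgeR adjusted p = 6.59e-08). E2F1, FOXM1 and E2F8 fell by 0.93, 0.77 and 0.66. E2F3, the third activator, rose instead. It was at 59.9, 59.4 and 58.1 CPM in control and 119, 116 and 119.9 CPM in estrogen libraries, a rise of 0.98 (SE 0.062, edgeR adjusted p = 1.75e-09). E2F7, an atypical E2F that represses the targets of the activators, rose slightly, from 26.4, 25 and 26.1 CPM to 31, 32.3 and 31.9 CPM (log2 difference 0.28, SE 0.079, edgeR adjusted p = 0.00521). With library totals alone this difference was 0.15 and was not called (edgeR adjusted p = 0.101).

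**Figure D2:**
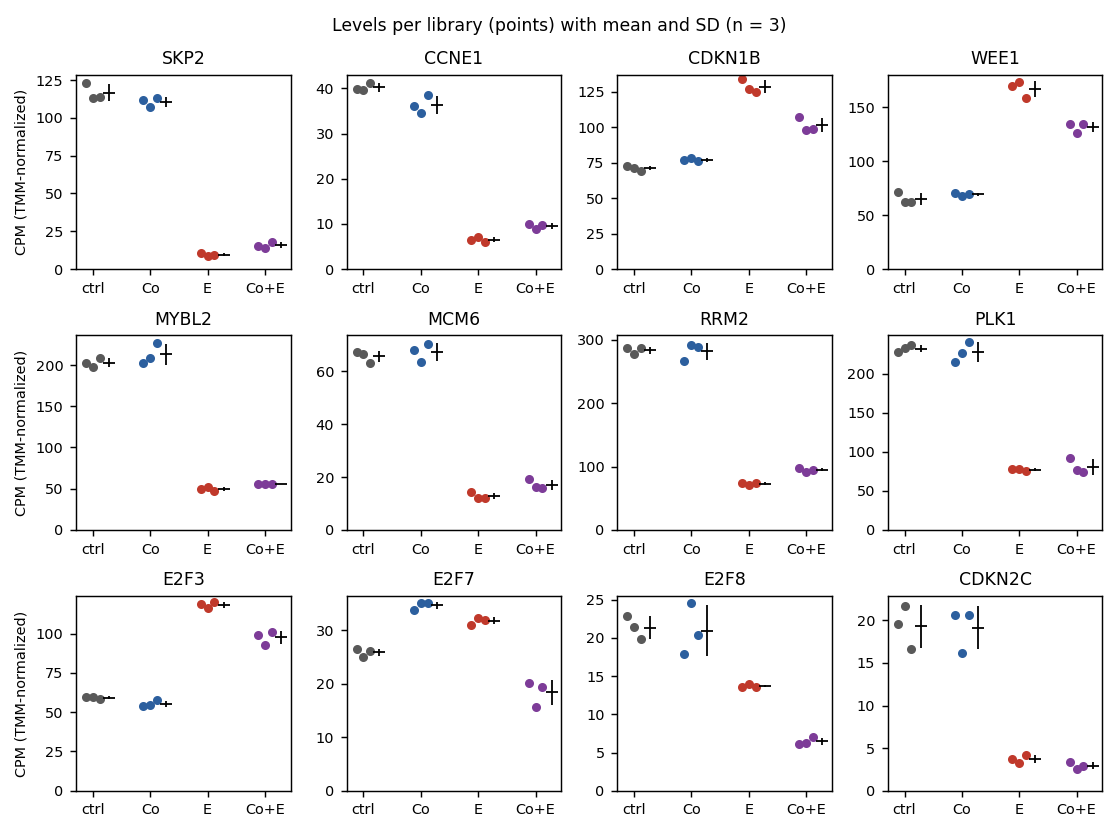
Points are TMM-normalized CPM of single libraries for 12 of the genes in control (ctrl), CoCl2 (Co), estrogen (E) and CoCl2+estrogen (Co+E) cells, with the mean and SD of the 3 libraries as a black bar, on axes that start at 0. SKP2, CCNE1, MYBL2, MCM6, RRM2, PLK1 and CDKN2C are low in both groups with estrogen, CDKN1B, WEE1 and E2F3 are high in both, and E2F7 is above control in the CoCl2 and in the estrogen libraries and below it in the CoCl2+estrogen libraries.

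Origin licensing and firing, the loading of the MCM helicase onto origins and its activation, had 10 of 11 genes lower and none higher. Their median was -1.31, and 90.9% were lower, against 34.2% of all tested genes. MCM6, a subunit of the helicase, was at 67.2, 66.7 and 63.2 CPM in control and 14.3, 12.2 and 12.1 CPM in estrogen libraries and fell by 2.36 (SE 0.085, edgeR adjusted p = 3.26e-12). MCM5 was at 151, 152 and 169 CPM in control and 34, 33.4 and 38 CPM in estrogen libraries and fell by 2.18 (SE 0.074, edgeR adjusted p = 2.04e-12). MCM3 was at 343, 332 and 349.5 CPM in control and 123, 119 and 116 CPM in estrogen libraries and fell by 1.53 (SE 0.057, edgeR adjusted p = 5.03e-12). The 6 subunits of this ring did not fall alike. MCM2 and MCM4 fell by 1.37 and 1.21, and MCM7 by 0.25 only, from 235, 213 and 247 CPM to 199, 207 and 184 CPM, although all 6 act in one complex. CDC45, which activates the helicase, fell by 1.5, and the loading factors ORC1 and CDC6 fell by 1.31 and 0.71. The loading factor CDT1 was the gene not called, at 100.2, 93 and 106 CPM in control and 99.1, 97.6 and 90.1 CPM in estrogen libraries (log2 difference -0.073, 95% interval -0.22 to 0.072), while its inhibitor GMNN (geminin) fell by 0.73.

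All 4 genes of nucleotide supply and DNA synthesis were lower, where 34.2% of all tested genes were. RRM2, the regulatory subunit of ribonucleotide reductase, was at 287, 277 and 287 CPM in control and 74.4, 70.7 and 74.4 CPM in estrogen libraries and fell by 1.97 (SE 0.060, edgeR adjusted p = 6.33e-13). RRM1, the catalytic subunit, was at 133, 137 and 134 CPM in control and 53.6, 49.1 and 52.2 CPM in estrogen libraries and fell by 1.40 (SE 0.065, edgeR adjusted p = 5.51e-11). TYMS (thymidylate synthase) and PCNA, the clamp of the replicative polymerases, fell by 1.14 and 0.62. ENOSF1 overlaps TYMS on the opposite strand and CCND2-AS1 lies opposite CCND2. Because it is not stated whether counting used strand, reads of these pairs cannot be told apart here. These pairs are examples, and the other genes were not surveyed for such overlaps.

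Genes of S/G2, mitotic entry and the DNA damage checkpoint were lower in 7 of 9 cases and higher in 1. That is 77.8% and 11.1%, against 34.2% and 34.7% of all tested genes. CHEK2, a checkpoint kinase, was at 22.4, 21.5 and 22.7 CPM in control and 6.67, 5.22 and 5.84 CPM in estrogen libraries and fell by 1.92 (SE 0.12, edgeR adjusted p = 1.09e-09). WEE1, the kinase that holds CDK1 inactive until mitosis, was the gene that rose, from 71.7, 62.2 and 61.8 CPM to 169.7, 173 and 159 CPM (log2 difference 1.34, SE 0.075, edgeR adjusted p = 4.19e-10). The cyclin genes CCNB1, CCNA2 and CCNB2 fell by 0.93, 0.88 and 0.62, and CDC25B, which opposes WEE1, fell by 0.74. CHEK1 fell by 0.31 and CDK1 itself fell by 0.27, and CDC25C was not called, with a difference of 0.12 (95% interval -0.10 to 0.34).

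Of the 14 mitotic genes, 12 were lower (85.7%, against 34.2% of all tested genes) and none was higher, with a median of -0.74. PLK1, the polo-like kinase of mitotic entry and spindle assembly, was at 228, 233 and 237 CPM in control and 78, 78.2 and 75.1 CPM in estrogen libraries and fell by 1.61 (SE 0.060, edgeR adjusted p = 4.87e-12). AURKB, the kinase of the chromosomal passenger complex, was at 40.7, 41.1 and 46 CPM in control and 22.1, 22.7 and 24 CPM in estrogen libraries and fell by 0.91 (SE 0.080, edgeR adjusted p = 7.34e-08). TTK, the spindle checkpoint kinase, was at 43.3, 51.2 and 39.8 CPM in control and 25.8, 22.2 and 24.6 CPM in estrogen libraries and also fell by 0.91 (SE 0.10, edgeR adjusted p = 1.01e-06). These 3 kinases had the largest falls of the group. The kinesin KIF11, the topoisomerase TOP2A, the checkpoint kinase BUB1, the anaphase activator CDC20 and AURKA fell by 0.73 to 0.82, and MKI67, BIRC5, MAD2L1 and BUB1B by 0.39 to 0.57. PTTG1 (securin) and the kinetochore motor CENPE were not called, with differences of -0.021 (95% interval -0.18 to 0.14) and 0.064 (-0.10 to 0.23).

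The estrogen effect was measured again between CoCl2+estrogen and CoCl2 cells, 6 libraries that share none with the comparison of estrogen with control. Here 55 of the 60 genes were called, 6 higher and 49 lower, with a median of -0.83 (all genes -0.0027), where 60.9% of the 16200 tested genes were called, 30.1% higher and 30.8% lower. In all, 51 genes were called in both comparisons, which is 98.1% of the first set and 92.7% of the second. Since 68.9% and 60.9% of all tested genes were called in these comparisons, a large overlap would arise in many lists. The share of all genes called in both was not counted. Of these, 44 were lower in both, among them SKP2, CCNE1, MYBL2, all 6 MCM subunits and the 4 nucleotide genes, and 6 were higher in both, namely CCND1, CDK6, CDKN1B, CDKN2D, E2F3 and WEE1. E2F7 was the gene called in opposite directions. The log2 differences of 38 genes lay within 0.25 of each other, which was not counted over all genes. The correlation over the 60 genes was 0.943 (Pearson), against 0.888 over 15800 genes. Without CoCl2 replicate B the second comparison again called 55 genes, 54 of them shared with the 55 above: PTTG1 lost its call (-0.21, edgeR adjusted p = 0.0656) and CDT1 gained one (-0.22, edgeR adjusted p = 0.0269).

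**Figure D3:**
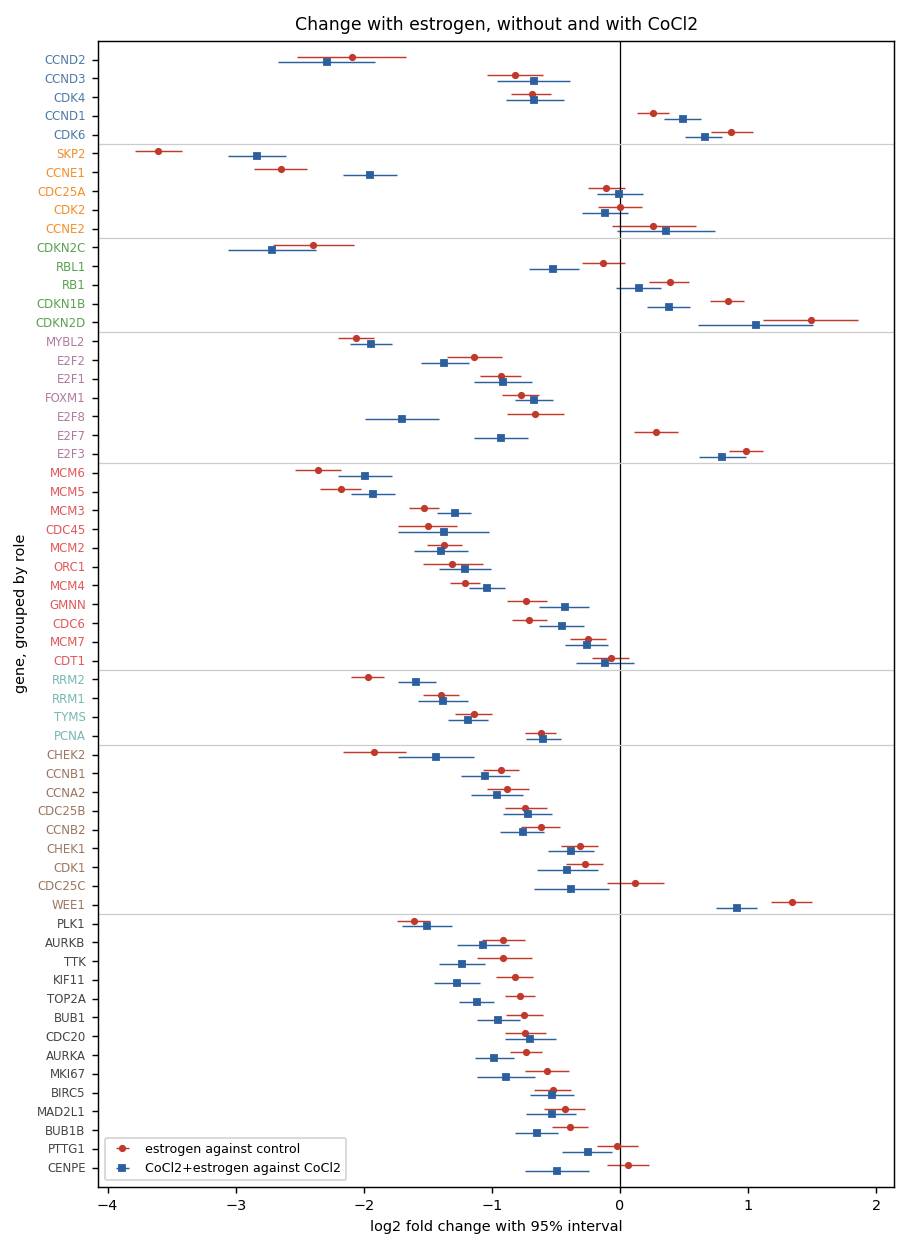
Points are log2 fold changes with 95% intervals for estrogen against control (red circles) and CoCl2+estrogen against CoCl2 (blue squares), with genes in the role blocks of the heat map. Most pairs of intervals overlap on the left of 0, and those of E2F7, E2F8, SKP2, CCNE1 and CDKN1B are among the pairs that do not overlap.

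SKP2 was at 112, 107 and 113 CPM in CoCl2 and 15.2, 14.1 and 17.9 CPM in CoCl2+estrogen libraries and fell by 2.83 (SE 0.10, edgeR adjusted p = 2.85e-10). MYBL2 was at 203, 209 and 227 CPM in CoCl2 and 56.2, 56 and 55.6 CPM in CoCl2+estrogen libraries and fell by 1.94 (SE 0.075, edgeR adjusted p = 3.82e-10). All 14 mitotic genes were lower in this pair of groups, PTTG1 (-0.25) and CENPE (-0.49) included, where 30.8% of all tested genes were. Without CoCl2 replicate B 13 of the 14 were called lower and PTTG1 was not called. RB1 was called only in the cells without CoCl2 (0.39 against 0.15 with it), and RBL1, CDC25C, PTTG1 and CENPE only in the cells with it. Of these 5, the difference between the estrogen effects was called for CENPE and not for RB1, RBL1, CDC25C or PTTG1 (edgeR adjusted p = 0.261, 0.0795, 0.112 and 0.43 for the interaction). Without CoCl2 replicate B the CDC25C interaction was called as well (-0.59, edgeR adjusted p = 0.028). CCNE2, CDK2, CDC25A and CDT1 were called in neither comparison with all libraries.

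When the cells with both agents were set against control cells, 57 of the 60 genes were called, 7 higher and 50 lower, with a median of -0.80, and 65.4% of the 16201 tested genes were called, 32.3% higher and 33.2% lower. CDK2, CDT1 and RB1 were the 3 genes not called. This comparison shares its control libraries with that of estrogen alone. CCNB1, cyclin B1, stood at 147, 139 and 156 CPM in control, 81.8, 76.1 and 76.1 CPM in estrogen and 60, 61.7 and 62.1 CPM in CoCl2+estrogen libraries, and it fell by 1.29 with both agents (SE 0.064, edgeR adjusted p = 3.95e-10). E2F8, the second atypical E2F, was at 22.8, 21.4 and 19.8 CPM in control and 6.16, 6.29 and 6.98 CPM with both agents and fell by 1.75 (SE 0.11, edgeR adjusted p = 6.05e-09). CCNE1 fell by 2.10 and SKP2 fell by 2.92 with both agents.

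CoCl2 on its own left the list close to control. The median log2 difference was -0.0067 (all genes -0.0033), the differences lay between -0.30 and 0.43, and 1 of the 60 genes was called, 1.67% of the list against 1.44% of the 15872 tested genes (1.31% higher, 0.132% lower). That gene was E2F7, at 26.4, 25 and 26.1 CPM in control and 33.8, 35.1 and 35 CPM in CoCl2 libraries, without overlap (log2 difference 0.43, SE 0.068, edgeR adjusted p = 0.0084). Without CoCl2 replicate B its difference was 0.42 (edgeR adjusted p = 0.0342). Its call was lost without control replicate A (0.44), control replicate B (0.40) or CoCl2 replicate C (0.42), and without CoCl2 replicate A the list had 2 genes called. An unadjusted p under 0.05 was found for 7 genes, 3 higher and 4 lower, or 11.7% of the list against 11.3% of all tested genes. Higher were E2F7, BUB1B and MKI67, and lower were CDC25A, CCNB1, CDK1 and CHEK2. The CoCl2 libraries of MKI67 were spread widely, at 591, 867 and 714 CPM, with replicate B the highest, against 581, 629 and 590.4 CPM in control. Without replicate B the MKI67 difference went from 0.27 to 0.12 (unadjusted p = 0.173 in edgeR), and 4 genes of the list had an unadjusted p under 0.05, or 6.67% against 8.84% of all tested genes.

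**Figure D4:**
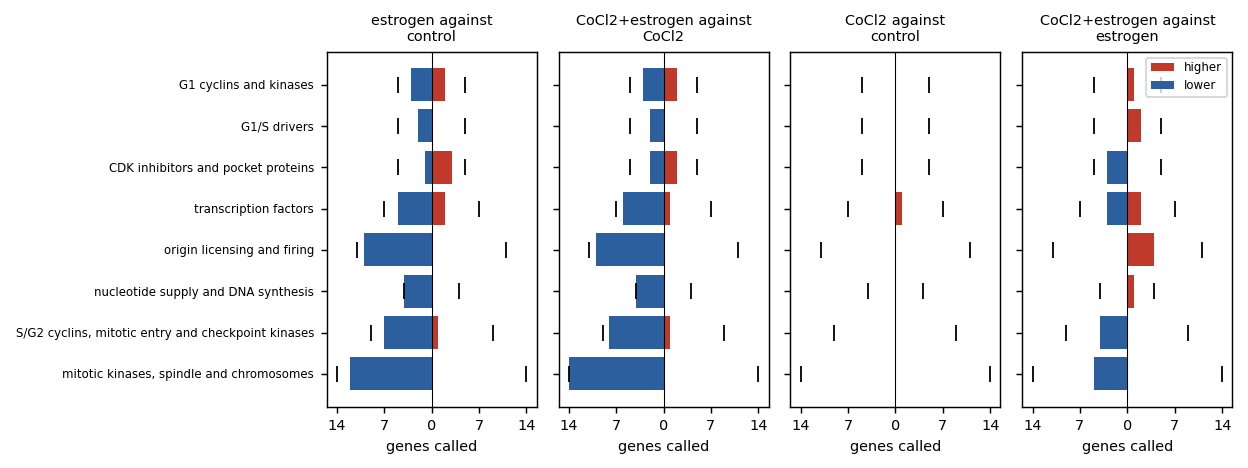
Bars give the number of genes called higher (red, right) and lower (blue, left) in each role group for 4 comparisons, and black ticks mark the number of genes in the group. Most genes of the replication and mitotic groups were lower with estrogen, without or with CoCl2, CoCl2 alone gives 1 call, and CoCl2 added to estrogen gives rises in the licensing group (4 of 11) and falls in the mitotic group (5 of 14).

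CoCl2 in the presence of estrogen was a different comparison, and it shares no library with that of CoCl2 alone. It does share its estrogen libraries with the comparison of estrogen with control. Between CoCl2+estrogen and estrogen cells, 25 of the 60 genes were called, 10 higher and 15 lower, with a median of -0.068 (all genes 0.0098). That is 41.7% of the list, 16.7% higher and 25% lower, where 17.0% of the 15925 tested genes were called, 8.14% higher and 8.85% lower. Leaving out 1 library at a time gave between 18 and 22 calls. The genes called higher were SKP2, CCNE1 and CCND1 of the G1/S step, CDC6, MCM3, MCM5, MCM6 and RRM2 of replication, and the transcription factor genes MYBL2 and FOXM1. The genes called lower were CCNB1, CDK1, CDC25C, WEE1, AURKA, TTK, KIF11, CENPE and TOP2A, of mitotic entry and mitosis, and RB1, RBL1, CDKN1B, E2F3, E2F7 and E2F8. With CoCl2 alone CCNB1 and CDK1 had differences of -0.23 and -0.24, not called, against -0.32 and -0.35 here. The other genes of mitotic entry and mitosis named here lay between -0.083 and 0.2 with CoCl2 alone. The difference between the CoCl2 effects without and with estrogen, tested below as an interaction, was called for 10 of the 25 genes. CCNB1 and CDK1 were not among them. Within the licensing group 4 of 11 were higher and none lower, and within the mitotic group 5 of 14 were lower and none higher. Several calls lay near the threshold, among them TTK, CCND1, RB1, MYBL2 and CDC25C (edgeR adjusted p = 0.0464, 0.0457, 0.0434, 0.0408 and 0.04). Single calls were followed through the alternatives only for the 10 genes with the smallest adjusted p.

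Of the genes called higher, SKP2 and RRM2 stayed far below their control levels. SKP2 went from 10.7, 8.93 and 9.18 CPM in estrogen to 15.2, 14.1 and 17.9 CPM in CoCl2+estrogen libraries (log2 difference 0.73, SE 0.12, edgeR adjusted p = 0.000436), where the control libraries had 113 to 123 CPM. RRM2 went from 74.4, 70.7 and 74.4 CPM to 97.4, 92.1 and 95.3 CPM (0.40, SE 0.062, edgeR adjusted p = 0.000187). CDC6, the loading factor, went from 64.8, 64.4 and 61.3 CPM to 77.7, 78.6 and 79.7 CPM (0.34, SE 0.064, edgeR adjusted p = 0.00118). In each of these genes the estrogen and the CoCl2+estrogen libraries did not overlap. All genes called higher here except CCND1 had been called lower with estrogen, from the same estrogen libraries. Low values there favour a rise here, so these rises are not an independent result.

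The falls included the genes with the largest change in this comparison. E2F8 went from 13.6, 13.9 and 13.6 CPM to 6.16, 6.29 and 6.98 CPM and fell by 1.05 (SE 0.12, edgeR adjusted p = 8.67e-06). E2F7 went from 31, 32.3 and 31.9 CPM to 20.1, 15.7 and 19.4 CPM and fell by 0.76 (SE 0.098, edgeR adjusted p = 3.34e-05). Both atypical E2F genes thus had their lowest levels with both agents. TOP2A, which untangles sister chromatids, went from 387, 369.7 and 389 CPM to 301, 286 and 309 CPM and fell by 0.33 (SE 0.053, edgeR adjusted p = 0.000318). AURKA, the centrosomal kinase, went from 119, 123 and 120.1 CPM to 98.1, 95.1 and 94.6 CPM and fell by 0.30 (SE 0.058, edgeR adjusted p = 0.00152). Of the 8 genes that had risen with estrogen, 5 were called lower here (WEE1, CDKN1B, E2F3, RB1 and E2F7), where 8.85% of all tested genes were. CCND1 rose further by 0.16, and CDK6 and CDKN2D were not called. The 8 genes were picked by the same estrogen libraries, and high values there favour a fall here. The 5 falls are therefore not an independent result. WEE1 stood at 134, 126 and 134 CPM with both agents, lower by -0.32 (SE 0.058, edgeR adjusted p = 0.000838), and CDKN1B at 107, 98.4 and 98.5 CPM, lower by -0.32 (SE 0.061, edgeR adjusted p = 0.00149). CCNB1 fell further, by 0.32 (SE 0.065, edgeR adjusted p = 0.00222).

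Whether the estrogen effect itself differed between cells without and with CoCl2 was tested as an interaction over the 12 libraries. It was called for 10 of the 60 genes, 3 higher and 7 lower, where 5.80% of the 16681 tested genes were called, 2.10% higher and 3.70% lower. The split depended on scaling, with 5 higher and 7 lower under upper-quartile scaling and 7 higher and 6 lower under library totals alone. The 3 genes with a positive interaction were SKP2 (0.80), CCNE1 (0.72) and RRM2 (0.41), whose fall with estrogen was smaller in the presence of CoCl2. CCNE1 was at 6.33, 7.08 and 6.05 CPM in estrogen and 9.94, 8.82 and 9.85 CPM in CoCl2+estrogen libraries, while its CoCl2 libraries, at 36.1, 34.6 and 38.5 CPM, were slightly below control.

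The negative interactions were of several forms. E2F7 rose by 0.28 with estrogen alone and fell by 0.93 (SE 0.096, edgeR adjusted p = 2.26e-06) when CoCl2 was present, an interaction of -1.18 (SE 0.13, edgeR adjusted p = 2.33e-05). E2F8 fell by 0.66 alone and fell by 1.70 with CoCl2, an interaction of -1.02 (SE 0.16, edgeR adjusted p = 0.000937). CDKN1B (-0.43) and WEE1 (-0.41) had a smaller rise with CoCl2 than without it. KIF11 (-0.42) and TOP2A (-0.31) fell more with estrogen in the presence of CoCl2, and CENPE (-0.53) was called lower in that comparison alone, with KIF11 at 124, 134 and 133 CPM in CoCl2 and 57.6, 50 and 56.3 CPM in CoCl2+estrogen libraries. CENPE was at 82.3, 118 and 90.7 CPM in CoCl2 libraries, with replicate B the highest, and its interaction was -0.39 without that replicate (edgeR adjusted p = 0.039). The CENPE interaction was no longer called, at -0.47 to -0.58, when any of 9 libraries was left out (each control, estrogen B and C, CoCl2 C or each CoCl2+estrogen library), and that of TOP2A when any of 4 was (control B or C, CoCl2 C or estrogen B). Without CoCl2 replicate B the other 9 genes were again called, with E2F7 at -1.2, E2F8 at -0.92 and SKP2 at 0.75.

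**Figure D5:**
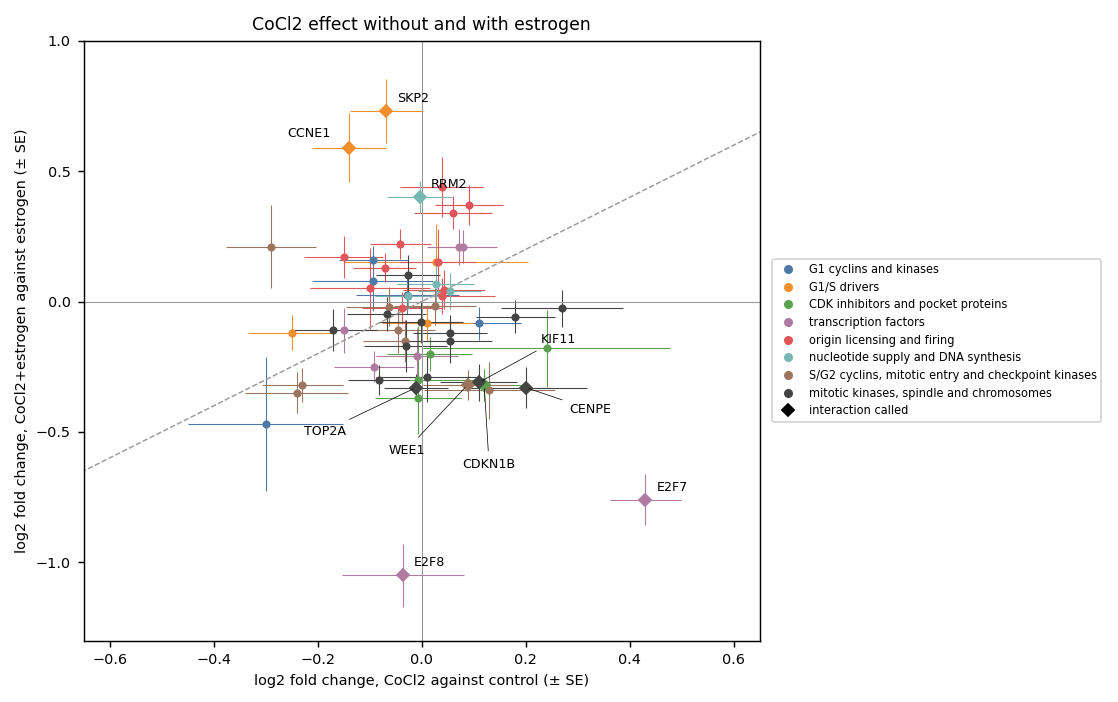
The horizontal axis is the log2 fold change of CoCl2 against control and the vertical axis that of CoCl2+estrogen against estrogen, each point being 1 of the 60 genes with its SE, coloured by role. The dashed line marks equal effects, and diamonds with names are the 10 genes with a called interaction. SKP2, CCNE1 and RRM2 lie above the line, and E2F7 and E2F8 lie farthest below it.

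A further 100 cell cycle genes outside the 60 were read in the same fits, and 98 of them were tested (CCNA1 and CDKN1C did not pass the filter). With estrogen 79 of the 98 were called, 22 higher and 57 lower, with a median of -0.31. That is 80.6% called, 22.4% higher and 58.2% lower, against 68.9%, 34.7% and 34.2% of all tested genes. The further genes, like the 60, were chosen with earlier results of these data known, so these shares are not an independent result. Of the 30 replication genes 27 were lower and 1 was higher (ORC6, by 1.13). GINS2, a subunit of the active helicase, was at 49.9, 49.9 and 54.9 CPM in control and 12.2, 10.4 and 12.1 CPM in estrogen libraries and fell by 2.17 (SE 0.088, edgeR adjusted p = 1.27e-11). Of the 15 other cyclin, kinase and inhibitor genes tested, 7 were higher and 4 lower (46.7% and 26.7%, against 34.7% and 34.2% of all tested genes).

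The largest rises of the longer list were 2 CDK inhibitors. CDKN2B, encoding p15 of the INK4 family, was at 10.6, 12.7 and 9.4 CPM in control and 132, 128 and 127 CPM in estrogen libraries, a rise of 3.54 (SE 0.095, edgeR adjusted p = 1.91e-13). An antisense gene, CDKN2B-AS1, overlaps it, with the same limit on strand as for TYMS. CDKN1A, encoding p21, a transcriptional target of p53, was at 108, 105 and 122 CPM in control and 642, 637 and 581 CPM in estrogen libraries, a rise of 2.46 (SE 0.068, edgeR adjusted p = 2.33e-13). ECT2, the exchange factor that starts the contractile ring, rose by 1.77 from 108, 104 and 93.3 CPM to 358, 337 and 363 CPM (SE 0.070, edgeR adjusted p = 9.11e-12), against the direction of most mitotic genes. With CoCl2 added to estrogen, CDKN1A fell to 367, 354 and 319 CPM (-0.81, SE 0.062, edgeR adjusted p = 7.04e-08) and CDKN2B to 81.3, 74.2 and 80.6 CPM (-0.69, SE 0.061, edgeR adjusted p = 4.17e-07).

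CoCl2 alone called 2 of the 98 genes, or 2.04%, near the 1.44% of all tested genes. CCNG2, cyclin G2, a cyclin linked to growth arrest rather than division, rose by 1.12 (SE 0.10, edgeR adjusted p = 0.000122), and the DREAM subunit gene LIN54 by 0.70 (SE 0.082, edgeR adjusted p = 0.000891). CCNG2 was at 10.3, 11.7 and 10.2 CPM in control, 22.3, 24.7 and 23.4 CPM in CoCl2, 27.4, 24.9 and 28.6 CPM in estrogen and 21.9, 14.6 and 22.1 CPM in CoCl2+estrogen libraries. Either agent alone therefore gave more CCNG2 than the control cells had, and both together did not add, with an interaction of -1.57 (SE 0.18, edgeR adjusted p = 3.59e-05). LIN54 and CCNG2 were named because they were the genes called in this comparison, after their values were seen. The count of 2 genes, these 2 calls and the CCNG2 interaction were not repeated without CoCl2 replicate B.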

How the data were processed

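Total RNA of 12 HepG2 libraries, 3 per group, was analysed, with groups, doses and times taken from the deposited labels. Per the study's methods, ribosomal RNA was depleted, stranded paired-end libraries were sequenced, rDNA, tRNA and mitochondrial rDNA reads were removed with Bowtie2 2.2.5, the rest was aligned with STAR 2.7.8a, and reads were quantified on RefSeq transcripts in Partek Flow. The submitters' notes list hg38 beside the mouse build. The authors deposited estimated counts per gene, without scaling, and 23.8% of the values are not whole. Of the 28278 genes, 7034 had no count. The authors' own test was DESeq2 after a filter on low reads.

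Counts were rounded. Each pair of groups was fitted on its 6 libraries in R 4.3.3 with edgeR 4.0.16 (quasi-likelihood test, scaling by TMM, genes kept where 1 library or more had over 5 counts, limma 3.58.1 loaded by edgeR), and the interaction on all 12 libraries. Intervals are at 95%. P-values were adjusted by Benjamini-Hochberg over all tested genes, with a threshold of 0.05. Levels of single libraries are TMM-normalized CPM over the 12 libraries. A log value relative to control used a prior count of 2. The functions were tested on simulated counts. Depth limits precision mainly for CCND2, CDKN2D, CCNE2 and CDKN2C, and intervals rest on 3 libraries per group.

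The 60 genes, their roles, the 100 further cell cycle genes and the marker lists were chosen with earlier results of these data known. Values in every library are given for the 2 or 3 largest changes of each role group with estrogen (mean at least 1 CPM), for genes opposite to most of their group, for up to 10 genes called with CoCl2 and in the interaction, and for 5 further cell cycle genes, 1 of which is not reported here. CDT1, MCM7 and MKI67 and other genes shown beyond that rule were chosen after their values were seen. Alternatives were DESeq2 1.42.0, 3 other scalings, 2 other filters, the replicate letter as a block, 1 fit over 12 libraries and leaving out each library. Promoter sequences of these genes and 12 mouse livers of the series were not analysed here.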

Additional observations from a re-analysis of the deposited data

Results flagged for a closer look

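For 10 of the 60 genes the effect of estrogen differed between cells without and with CoCl2 in the interaction term of the quasi-likelihood test of edgeR, adjusted by the Benjamini-Hochberg method. The interaction, on the log2 scale, was -1.18 for E2F7, -1.02 for E2F8, 0.80 for SKP2, 0.72 for CCNE1, -0.53 for CENPE, -0.43 for CDKN1B, -0.42 for KIF11, 0.41 for RRM2, -0.41 for WEE1 and -0.31 for TOP2A. E2F7 was the gene called in opposite directions, with a rise of 0.28 without CoCl2 and a fall of 0.93 with it. For SKP2, CCNE1, RRM2, CDKN1B and WEE1 the estrogen effect kept its direction and was smaller with CoCl2. For E2F8, KIF11 and TOP2A it kept its direction and was larger. CENPE had a difference of 0.064 without CoCl2, which was not called, and of -0.49 with it, which was, and its highest CoCl2 library was replicate B, the library that stood apart. The part of that library in the CENPE value was measured by leaving it out, which gave -0.39.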

How the results depend on the processing

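The number of genes called stayed within 1.5 times its reported value under every alternative run for 5 of the 6 comparisons, with 52 to 54 for estrogen against control, 52 to 55 for CoCl2+estrogen against CoCl2, 54 to 58 for both agents against control, 18 to 27 for CoCl2+estrogen against estrogen and 8 to 14 for the interaction. For CoCl2 against control, leaving out 1 library gave 0 to 2 genes, with 0 without control replicate A, control replicate B or CoCl2 replicate C and 2 without CoCl2 replicate A, and the cause was not tested. Over 47 results for named genes, 688 of 708 alternative values kept their direction and side of the threshold, 20 lost the call and 0 reversed. All 47 were called in the main fit, most of them picked for a large change or a small adjusted p. No call could therefore be gained, and the share says little about genes near the threshold. Those that lost it were CCND1 (0.13) and E2F7 (0.15) with estrogen under library totals alone, E2F7 with CoCl2, and the interactions of CENPE (-0.47 to -0.58, 9 left-out libraries) and TOP2A (-0.26 under library totals alone, and without 4 libraries). Library totals alone moved the median of all genes by -0.13 in estrogen against control.

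The replicate letters showed no clear pairing of the samples. Residuals of same-letter libraries correlated between -0.31 and 0.289 over 18 pairs (median -0.0348), and 5 of 18 were above 0.1. Only 2 of 12 libraries correlated best with their own letter. Weak correlations cannot exclude pairing, and the S numbers that end the labels run in blocks by letter. With the replicate block, 52, 53, 55, 1 and 27 genes were called in the pairwise comparisons (estrogen against control, CoCl2+estrogen against CoCl2, both agents against control, CoCl2 against control, CoCl2+estrogen against estrogen) and 9 in the interaction, where TOP2A (-0.31) was no longer called. Among the named genes no other call changed. Depth limited the genes with the fewest counts: 8 of the 60 had a count under 100 in a library.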

Other observations

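The anaphase-promoting complex and the SCF ligases, which degrade cyclins and inhibitors at fixed points of the cycle, were read in the further list of cell cycle genes as 16 genes. With estrogen 6 were lower and 4 higher, or 37.5% and 25%, which is near the 34.2% and 34.7% of all tested genes. Subunit genes of the complex were mixed: ANAPC1, ANAPC2, ANAPC4, ANAPC5 and CDC27 fell by 0.63, 0.74, 0.91, 0.62 and 0.33, CDC16 rose by 0.25, and ANAPC10 (-0.31), CDC26 (-0.22) and CDC23 (0.069) were not called (the quasi-likelihood test of edgeR, adjusted by the Benjamini-Hochberg method), while FBXW7, the SCF receptor for cyclin E, rose by 1.00 from a mean of 25.1 to 50.8 CPM (n = 3 each), opposite to SKP2. When CoCl2 was added to estrogen, 4 of the 16 were lower and none higher (25% lower, against 8.85% of all tested genes), namely FZR1 (-0.37), the inhibitor FBXO5 (-0.54) and the E2 enzymes UBE2C (-0.30) and UBE2S (-0.59). These genes were named after their values were seen.

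The outer kinetochore genes SPC24 and SPC25 fell by 2.21 and 1.98 with estrogen, from means of 51.4 and 25.2 CPM to 11.2 and 6.46 CPM, whereas their partners in the NDC80 complex had log2 differences of -0.058 (NDC80, edgeR adjusted p = 0.581) and -0.086 (NUF2, edgeR adjusted p = 0.478) and were not called. The condensin genes were also mixed: SMC2, NCAPD2 and NCAPH fell by 0.57, 0.49 and 0.37, and SMC4 and NCAPG rose by 0.27 and 0.33. These genes too were named after their values were seen. Of the 25 further mitotic genes, 16 were lower and 6 higher with estrogen, or 64% and 24% against 34.2% and 34.7% of all tested genes. When CoCl2 was added to estrogen, 11 were lower and none higher, or 44% lower against 8.85%, and 8.14% of all tested genes were higher.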
